A study of Mus musculus with 4 samples.

Results

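The transcripts of 10 genes for proteins that hepatocytes secrete into blood plasma were followed in total RNA from embryonic mouse heart valves: Alb, Afp, Ttr, Trf, Apoa1, Apoa2, Apob, Ahsg, Fga and Fgb. All 10 have a row among the 23337 gene rows of the deposited count table. They were chosen because 2 of them, Alb and Afp, were higher in the mutant libraries, so the difference between genotypes is given for the 10 genes as a description, and nothing is read from whether they passed a threshold. The tissue was cardiac cushion, embryonic swellings that become the valves, taken from the outflow tract and atrioventricular canal of C57BL/6 embryos at embryonic day 14.5 with Cre-reporter GFP as the guide to dissection. One group was 2 libraries labelled wildtype and the other 2 libraries labelled Nfatc1Cre;Brg1F/F mutant, in which Cre made from the endocardial Nfatc1 locus deletes floxed Brg1 (Smarca4), the motor subunit of SWI/SNF remodelling complexes. Which Cre and reporter alleles the wildtype littermates carried, and how many embryos went into a library, is not given in the sources used here, so p-values rest on library-to-library spread alone, part of which may be technical.

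Hepatocytes make most of the protein of blood plasma. Albumin (Alb) is the main carrier and osmotic protein of adult plasma, and alpha-fetoprotein (Afp), its relative, is the main one of the fetus and is made by fetal liver and yolk sac. Transthyretin (Ttr) carries thyroid hormone and retinol-binding protein, transferrin (Trf) carries iron, apolipoproteins A-I and A-II (Apoa1, Apoa2) are the core proteins of HDL, apolipoprotein B (Apob) is that of VLDL and LDL, fetuin-A (Ahsg) is a glycoprotein that binds calcium phosphate, and Fga and Fgb encode the alpha and beta chains of fibrinogen. Most are also made by visceral endoderm of the yolk sac, and Trf by glia and other cells. Their promoters are classic targets of the hepatocyte factors HNF4 and C/EBP.

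Reads in genes numbered 14104458 to 22426537 per library, and 3 reads corresponded to 0.134 to 0.213 CPM (reads scaled to library size). Smarca4 measured 251 and 231 CPM in the wildtype and 282 and 239 CPM in the mutant libraries, so counts over the whole gene did not separate the genotypes. Cushion and valve genes were present as labelled, with Postn at 1500 to 1730 CPM and the endothelial cadherin Cdh5 at 232 to 249 CPM, next to much muscle RNA. Mutant replicate 2 stood apart by sex: it held 3384 reads of the Y-linked gene Ddx3y and 189 of Xist, against 0 to 28 and 36708 to 60417 in the other libraries. Genotype and sex cannot be told apart within pair 2. In bulk tissue, fewer cells of a type and less RNA per cell cannot be told apart either.

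The upstream sequences of Alb, Afp and Fgb are shown because Alb and Afp lie next to each other and were both higher in the mutant libraries, while Fgb, whose sequence holds the same C/EBP motif, had almost no reads. Each is the 250 bases before the RefSeq start site (GRCm38.p6), 5′ to 3′ on the gene's own strand, with matches to the C/EBP motif on either strand in capitals. Alb is at chr5:90460620-90460869 on the plus strand, Afp at chr5:90490464-90490713 on the plus strand and Fgb at chr3:83049864-83050113 on the minus strand.
Alb: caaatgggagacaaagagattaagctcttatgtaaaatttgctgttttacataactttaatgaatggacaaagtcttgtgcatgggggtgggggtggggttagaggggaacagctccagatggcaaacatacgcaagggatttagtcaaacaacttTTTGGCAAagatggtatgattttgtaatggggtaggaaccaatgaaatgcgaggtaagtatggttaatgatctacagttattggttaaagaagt
Afp: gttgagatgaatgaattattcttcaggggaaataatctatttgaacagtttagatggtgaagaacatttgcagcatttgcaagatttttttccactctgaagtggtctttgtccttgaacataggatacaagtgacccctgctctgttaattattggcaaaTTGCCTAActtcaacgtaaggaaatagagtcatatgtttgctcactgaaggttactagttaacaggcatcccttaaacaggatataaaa
Fgb: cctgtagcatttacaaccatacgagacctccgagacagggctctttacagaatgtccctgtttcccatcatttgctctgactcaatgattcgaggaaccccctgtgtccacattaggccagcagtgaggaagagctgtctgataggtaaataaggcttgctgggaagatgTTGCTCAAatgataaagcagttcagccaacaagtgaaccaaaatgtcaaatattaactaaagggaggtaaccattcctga
Of the 10 genes, 8 had their sequence searched, on both strands. Left out were Trf, for which no promoter sequence was available, and Ttr, whose promoter was not used. The C/EBP motif TTGCNNAA was in 7 of the 8, against 9.56% of 32851 mouse promoter windows of the same length, where a gene with several start sites counted if any window held it. It lay at -94 to -87 in Alb, on the opposite strand, at -89 to -82 in Afp and at -80 to -73 in Fgb, counted from the start site. The TATA box TATAAA was in 3 of the 8 (12.4% of windows), among them Afp at -7 to -2, and the HNF4 motif CAAAGTCCA in 0 (0.384%). These motifs did not overlap each other in the sequences shown. For Alb and Afp the RefSeq start site lies upstream of the GENCODE start given below. Motif positions in these genes therefore depend on the annotation used. A match is a description of the letters and shows no binding.

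Alb and Afp had the largest fitted fold changes of the 6 genes that passed the low count filter. Alb (chromosome 5, 90460897 to 90476602) had 36 reads in wildtype replicate 1, 11 in wildtype replicate 2, 83 in mutant replicate 1 and 115 in mutant replicate 2. Values below keep that order of libraries. Scaled to library size, that was 1.92 and 0.694 CPM in wildtype against 3.65 and 8.12 CPM in mutant libraries. Both mutant values lay above both wildtype values, but the values within a genotype also differed. The wildtype mean was 1.30 ± 0.864 CPM and the mutant mean 5.88 ± 3.16 CPM (SD, n = 2 libraries each), and the fitted log2 fold change was 2.11 ± 0.51 (SE).

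Afp (chromosome 5, 90490737 to 90508907) had 31 and 43 wildtype reads against 102 and 100 mutant reads, or 1.65, 2.71, 4.49 and 7.06 CPM. Here too the groups did not overlap. The means were 2.18 ± 0.751 CPM in wildtype and 5.77 ± 1.82 CPM in mutant libraries (SD, n = 2 each), with a log2 fold change of 1.40 ± 0.35 (SE). Mutant replicate 2 had the highest level of both genes. Without it the log2 fold change was 1.46 for Alb and 1.06 for Afp.

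Read pair by pair, with each mutant set against the wildtype library of the same number, the genes parted. Afp was 2.72 times as high in the mutant of pair 1 (95% exact interval 1.80 to 4.21, counting error only) and 2.60 times in pair 2 (1.80 to 3.81). Alb was 1.91 times as high in pair 1 (1.27 to 2.90) and 11.7 times in pair 2 (6.30 to 24.1). The larger Alb ratio rested on a low wildtype library as well as a high mutant one: wildtype replicate 2 had 0.362 times the Alb level of wildtype replicate 1 (0.166 to 0.727), and mutant replicate 2 had 2.22 times that of mutant replicate 1 (1.66 to 2.99). Afp differed the other way between the wildtype libraries, at 1.64 times in replicate 2 (1.01 to 2.70). Reads were counted with no molecular identifiers and are not separate molecules, and the intervals leave out biological spread.

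The ratio of Alb to Afp was therefore not constant. Alb made up 53.7% of the reads of the pair of genes in wildtype replicate 1 (Wilson 95% interval 41.9 to 65.1), 44.9% in mutant replicate 1 (37.9 to 52.1) and 53.5% in mutant replicate 2 (46.8 to 60.0). In wildtype replicate 2 it was 20.4% (11.8 to 32.9), below the intervals of the other 3 libraries.

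**Figure D1:**
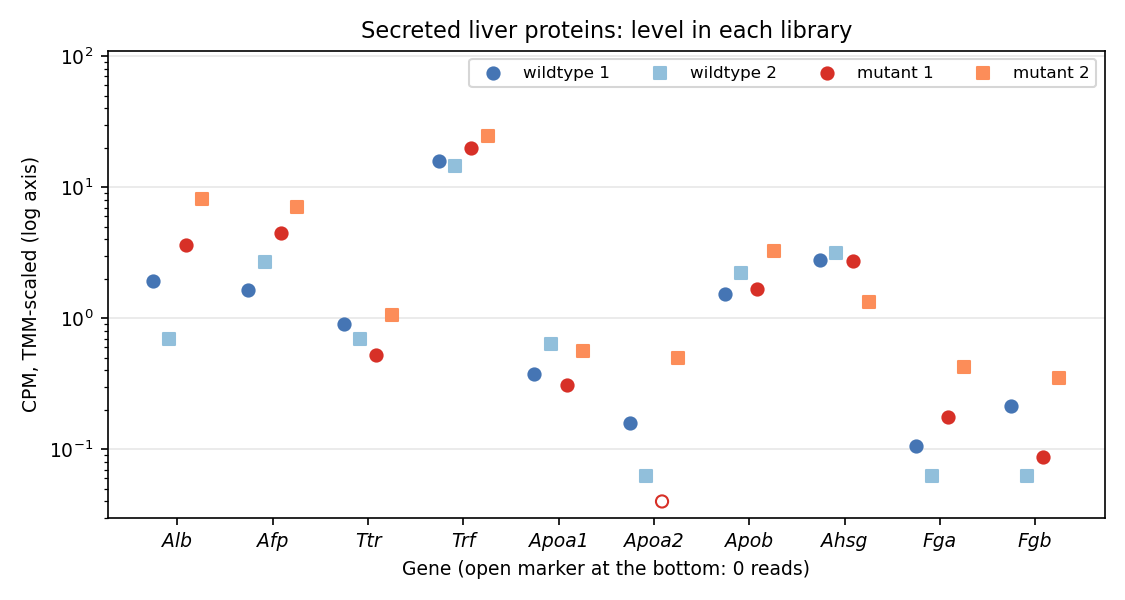
Level of each of the 10 genes in each library, in TMM-scaled CPM on a log axis; circles are replicate 1, squares replicate 2, blue wildtype, red and orange mutant, and an open marker stands for 0 reads. Alb and Afp are higher in both mutant libraries, Trf is by far the highest gene in every library, and Apoa2, Fga and Fgb stay at or under 7 reads in every library.

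The 2 other carrier genes behaved differently from each other. Trf (chromosome 9, 103204001 to 103230444) was the highest of the 10 genes, with 298 and 231 reads in wildtype and 453 and 346 reads in mutant replicates 1 and 2. Its levels were 15.9 and 14.6 CPM in wildtype against 19.9 and 24.4 CPM in mutant libraries, so the groups did not overlap, but the log2 fold change was small at 0.54 ± 0.18 (SE). The mutant to wildtype ratio of Trf was 1.26 in pair 1 (1.08 to 1.46) and 1.68 in pair 2 (1.41 to 1.99). Trf was also the only one of the 10 genes with a row in the authors' deposited table, where its log2 fold change, as mutant over wildtype, was 0.54.

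Ttr (chromosome 18, 20665280 to 20674321) had 17 and 11 reads in wildtype and 12 and 15 reads in mutant replicates 1 and 2. Its levels, 0.905, 0.694, 0.528 and 1.06 CPM, overlapped between the genotypes. Ttr was lower in the mutant of pair 1, at 0.583 times (0.254 to 1.30), and higher in that of pair 2, at 1.53 times (0.655 to 3.67), and both intervals included 1. The fitted log2 fold change was -0.08 ± 0.52 (SE).

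The apolipoprotein genes were low and gave no separation of the groups. Apob (chromosome 12, 7977648 to 8016835) had 29 and 35 reads in wildtype and 38 and 46 reads in mutant replicates 1 and 2, or 1.54, 2.21, 1.67 and 3.25 CPM, with overlap between the groups. Its ratio was 1.08 in pair 1 (0.650 to 1.82) and 1.47 in pair 2 (0.927 to 2.35), and the log2 fold change of 0.36 ± 0.42 (SE) became -0.15 without mutant replicate 2. Apoa1 (chromosome 9, 46228580 to 46230466) had 7 and 10 reads in wildtype and 7 and 8 in mutant libraries. Apoa2 (chromosome 1, 171225054 to 171226379) had 3 and 1 reads in wildtype and 0 and 7 reads in mutant replicates 1 and 2. The 0 reads allow up to 0.134 CPM in that library.

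Fetuin-A was low in a single library. Ahsg (chromosome 16, 22891277 to 22899449) had 52 and 50 reads in wildtype and 62 and 19 reads in mutant replicates 1 and 2, or 2.77, 3.15, 2.73 and 1.34 CPM. In pair 1 its ratio was 0.985 (0.671 to 1.45) and in pair 2 it was 0.425 (0.237 to 0.734). Mutant replicate 2, the library with the most Alb and Afp, thus had the least Ahsg. The log2 fold change was -0.50 ± 0.38 (SE), and -0.11 without that library.

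The fibrinogen genes were near the counting limit. Fga (chromosome 3, 83026076 to 83033627) had 2 and 1 reads in wildtype and 4 and 6 in mutant replicates 1 and 2, and Fgb (chromosome 3, 83040141 to 83049863) had 4 and 1 in wildtype and 2 and 5 in mutant replicates. Each pair's interval for these genes included 1. For Fga it ran from 0.237 to 18.3 in pair 1 and from 0.815 to 309 in pair 2, so a difference was not detectable at this depth.

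**Figure D2:**
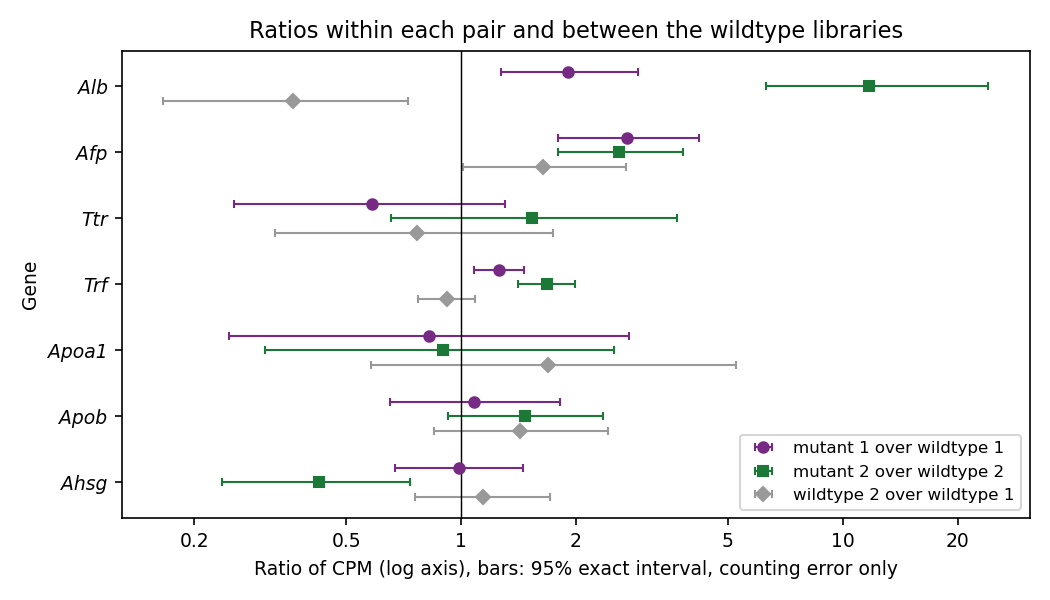
Ratio of CPM on a log axis for the 7 genes with at least 30 reads over the 4 libraries; purple circles are mutant 1 over wildtype 1, green squares mutant 2 over wildtype 2, grey diamonds wildtype 2 over wildtype 1, and bars are 95% exact intervals that cover counting error only. Afp has nearly the same ratio in both pairs, 2.72 and 2.60, Alb differs between pairs at 1.91 and 11.7, and Ahsg is below 1 in pair 2 at 0.425.

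Of the 10 genes, 6 passed the low count filter and 4 (Apoa1, Apoa2, Fga and Fgb) did not. By edgeR's quasi-likelihood test 0 of the 10 were called at an adjusted p under 0.05, where 0.0629% of the 14316 genes tested were called, 0.0559% higher and 0.00699% lower in the mutant. With the replicate block 2 were called, Alb and Afp, both higher, where 0.887% of genes were called, 0.692% higher and 0.196% lower. DESeq2 called 1, Alb, where 0.433% were called, 0.300% higher and 0.133% lower. The log2 fold change was above 1 for 2 of the 10, Alb and Afp, and for 2.04% of genes tested. The ratio was above 2 in both pairs for 1, Afp, and for 1.19% of genes tested. The genes were chosen on this contrast, so these counts support nothing about them. Both mutant libraries lay above both wildtype libraries for 4 of the 10 (Alb, Afp, Trf and Fga) and below for 1 (Ahsg), against 13.5% and 12.4% of all gene rows.

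Per kilobase of exon, the order of levels averaged over the 4 libraries ran from Trf at 5.63 RPKM (range 4.39 to 7.35) through Alb at 1.53 (0.296 to 3.47), Afp at 1.18 (0.490 to 2.10), Ahsg at 1.14 (0.610 to 1.44), Ttr at 0.671 (0.445 to 0.893), Apoa1 at 0.379, Apoa2 at 0.334 and Apob at 0.156 to Fga at 0.0639 and Fgb at 0.0470. Trf stood clear of the rest. Alb, Afp, Ahsg and Ttr overlapped in range, and Apoa1 (0.249 to 0.51) overlapped with Alb, Afp and Ttr. Apoa2 (0 to 0.92) overlapped with every gene but Trf. Fga (0.021 to 0.141) overlapped with Apob (0.111 to 0.233) and with Fgb. The order below Trf is therefore not resolved in full. Among 22848 genes with an exon length, Trf was at percentile 70.7, Alb at 52.5, Afp at 50.1 and Fgb at 29.1.

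Summed over the 10 genes, the level was 25.5 and 24.8 CPM in wildtype against 33.6 and 47.1 CPM in mutant libraries, a ratio of 1.60 between the group means. Alb and Afp supplied the larger part of that difference. Their summed level was 3.57 and 3.41 CPM in wildtype against 8.14 and 15.2 CPM in mutant libraries. Trf supplied most of the rest, with a mean of 15.2 CPM in wildtype against 22.2 CPM in mutant libraries. Without Alb and Afp the sum of the other 8 genes had a ratio of 1.32. The 6 genes left after Trf and Apob were also set aside summed to 4.52 and 4.67 CPM in wildtype against 3.83 and 4.23 CPM in mutant libraries. That sum was 0.846 times the wildtype in pair 1 and 0.907 times in pair 2, on 85 and 74 wildtype and 87 and 60 mutant reads. The genes set aside were all the tested ones with a positive fitted log2 fold change. A sum that is not higher therefore follows from the choice, and nothing is read from it.

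**Figure D3:**
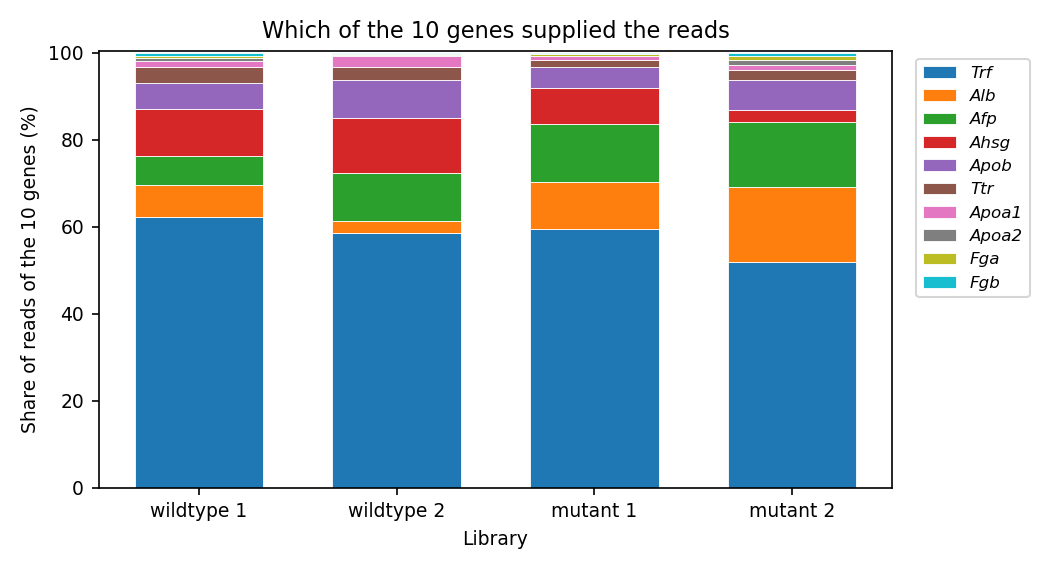
Share of the reads of the 10 genes that came from each gene, one stacked bar per library, in percent. Trf takes 51.9% to 62.2% in every library, the share of Alb goes from 7.52% and 2.79% in wildtype to 10.9% and 17.2% in mutant replicates 1 and 2, and that of Ahsg is 2.85% in mutant replicate 2 against 8.13% to 12.7% elsewhere.

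Alb and Afp are neighbours, 14135 bases apart on chromosome 5, and the next gene downstream is Afm, another member of the albumin family. Afm had 0 reads in both wildtype libraries and 1 and 3 reads in mutant replicates 1 and 2, at most 0.212 CPM. A further family member, Gc, the vitamin D-binding protein, had 0 and 1 reads in wildtype and 1 and 5 in mutant replicates. Within 500 kb of Alb lay 14 other genes with a row, 7 of which were tested, and 0 of the 7 passed by edgeR with or without the block or by DESeq2, with 1 at an unadjusted p under 0.05, the threshold that 555 genes passed higher and 272 lower. That one was the platelet chemokine Ppbp, at 1.06 and 1.26 CPM in wildtype against 2.81 and 2.96 CPM in mutant libraries (log2 fold change 1.31 ± 0.35, edgeR adjusted p = 0.355). Ankrd17, on the other side of Alb, was at 363 to 442 CPM with a log2 fold change of 0.14 ± 0.13.

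To see whether other products of the liver behaved like Alb and Afp, 57 further plasma protein genes were followed that the choice of the 10 genes did not use. Of these, 6 had 0 reads in all libraries, 41 stayed under 10 reads in every library and 13 could be tested. By edgeR with or without the block, and by DESeq2, 0 of the 13 passed, while 2 of the 13 had higher and 1 had lower levels at an unadjusted p below 0.05, a threshold that 555 genes passed with higher and 272 with lower levels among the 14316. Their median log2 fold change was 0.00, as over all genes tested. Without the low count filter it was 0.67, over 51 genes. Many of those 51 stayed under 10 reads in every library, and the median over all genes was not taken for that fit. Nothing is therefore read from the 0.67.

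The highest of these plasma protein genes were ones that many tissues make. Apoe, a lipoprotein ligand made by macrophages and other cells as well as liver, measured 206 and 170 CPM in wildtype against 208 and 239 CPM in mutant libraries (log2 fold change 0.24 ± 0.14). Pros1, the anticoagulant protein S, was at 43.6 and 45.3 CPM in wildtype against 53.2 and 58.0 CPM in mutant libraries (0.32 ± 0.14). Cfi, a protease of the complement system, was at 10.3 and 10.4 CPM in the mutant libraries, just above the higher wildtype library, and at 6.31 CPM in wildtype replicate 2 (0.34 ± 0.24). Complement C3 ranged from 1.38 to 5.42 CPM and Lcat, the enzyme that esterifies cholesterol on HDL, from 2.05 to 2.99 CPM, both with overlapping groups.

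Several plasma protein genes were at or near 0, and those with more reads differed in direction. The gene of the fibrinogen gamma chain, Fgg, had 1 and 1 reads in wildtype and 6 and 7 in mutant libraries. Prothrombin (F2) had 0 or 1 reads in each library, Apoh 0 to 3 and the antitrypsin gene Serpina1a 0 or 1, the last with near-identical copies that can split its reads. Ambp, the precursor of bikunin, had 1 and 1 reads in wildtype and 3 and 6 in mutant libraries, and Itih2, whose protein bikunin joins, had 3 and 3 in wildtype and 6 and 18 in mutant replicates 1 and 2. Others were lower in both mutant libraries: angiotensinogen (Agt) had 14 and 6 reads in wildtype and 4 and 2 in mutant libraries, and plasminogen (Plg) 2 and 4 in wildtype and 1 and 1 in mutant libraries. Antithrombin (Serpinc1) had 10 to 15 reads in each library and Itih3 18 to 20. The genes of this paragraph were picked after their values were seen. The 44 plasma protein genes that could not be tested summed to 3.62 and 3.59 CPM in wildtype against 4.05 and 7.76 CPM in mutant libraries. The sum was higher in mutant replicate 2, and close to wildtype in mutant replicate 1.

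Of all 57 genes, both mutant libraries lay above both wildtype libraries for 13, or 22.8%, and below for 4, or 7.02%, beside 13.5% and 12.4% of all gene rows. These are counts of order only, with no test.

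Other hepatocyte genes, mostly regulators and enzymes, were followed as well. Of 42 such genes, 34 stayed under 10 reads in every library and 5 were tested, of which 0 passed by edgeR with or without the block or by DESeq2, with 1 higher at an unadjusted p under 0.05 (Cebpa). Both mutant libraries lay above both wildtype libraries for 14.3% of the 42 and below for 9.52%, beside 13.5% and 12.4% of all gene rows. The liver transcription factor Hnf4a had 0 and 1 reads in wildtype and 0 and 4 in mutant libraries. Foxa1 had 0 reads in every library and Foxa2 a single read. Cps1, the first enzyme of the urea cycle, had 3 and 3 reads in wildtype and 9 and 6 in mutant libraries. It was 1 of 6 genes of the list that were higher in both mutant libraries. The 4 that were lower in both were Nr1i3, Tdo2, Bhmt and Slc2a2. Tdo2 and Bhmt each had 3 and 2 reads in wildtype and 1 and 1 in mutant libraries. Asgr1, the hepatocyte receptor for plasma glycoproteins, had 0 to 2 reads and Hamp, the iron hormone hepcidin, 1 in each library. The 37 untested genes summed to 3.94 and 4.54 CPM in wildtype against 4.44 and 5.58 CPM in mutant libraries.

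The tested genes of that list were mostly ones that other tissues share. Mttp, the transfer protein that loads lipid onto apolipoprotein B, measured 14.8 and 12.3 CPM in wildtype against 13.2 and 14.3 CPM in mutant libraries (log2 fold change 0.02 ± 0.19). Fah, of tyrosine breakdown, was at 3.51 to 4.86 CPM (0.11 ± 0.27), the bile acid receptor Nr1h4 at 1.97 to 2.40 CPM (0.04 ± 0.33) and Mat1a at 0.748 to 1.32 CPM (-0.22 ± 0.46). Cebpa, a factor of hepatocytes and myeloid cells, was at 0.319 and 0.315 CPM in wildtype against 0.792 and 0.776 CPM in mutant libraries (1.29 ± 0.54, edgeR adjusted p = 0.819). Of the 6 highest, Hal was not tested.

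Visceral endoderm also makes Afp, and its other genes were read beside it. Of 10, 5 stayed under 10 reads in every library, among them Amn, the partner of cubilin (1 to 3 reads), and Spink3 (0 or 1). Cubilin (Cubn) was at 4.84 to 6.75 CPM and megalin (Lrp2) at 23.8 to 33.7 CPM, both of which other epithelia and neural tissue make. By edgeR 0 of the 5 tested passed. With the block 1 fell, Dpp4, from 58.9 and 56.3 CPM to 31.2 and 35.5 CPM (log2 fold change -0.79, edgeR adjusted p = 0.145, or 0.0308 with the block). Dpp4 also passed by DESeq2 (adjusted p = 0.00583).

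Fetal liver at this stage is also the main site of blood formation, and its blood cells were read from lists of their genes. Among 19 erythroid genes, 14 were tested, with a median log2 fold change of 0.73, or 0.30 over the 7 that passed the stricter filter. By edgeR 1 rose, Hemgn, a nuclear protein of blood progenitors, from 0.585 and 0.252 CPM to 5.76 and 5.29 CPM. With the replicate block 3 rose, also Rhag, an ammonium channel of the red cell membrane, from 0.160 and 0.126 CPM to 1.41 and 1.34 CPM (edgeR adjusted p = 0.128, or 0.00878 with the block), and Slc4a1, the band 3 anion exchanger, from 11.2 and 8.51 CPM to 20.9 and 17.9 CPM (0.179, or 0.0226 with the block). Embryonic globin Hbb-y, made by yolk sac-derived red cells, was at 475 and 490 CPM in wildtype against 624 and 544 CPM in mutant libraries (0.28 ± 0.14). The adult globin genes Hba-a1, Hbb-b1 and Hbb-b2 had 0 reads in every library, and Hba-a2 had 1 read, in mutant replicate 1. The reason was not tested, and the list gives no reading of these globins. The negative log2 fold changes were those of Epor (-0.53 ± 0.46), lower in both mutant libraries, Tfrc (-0.22 ± 0.18) and Tal1 (-0.02 ± 0.20). The erythroid list summed to 849 and 778 CPM in the wildtype libraries and to 1050 and 855 CPM in the mutant ones, without overlap. Hbb-y was the largest part of each sum. The count of erythroid genes called ranged from 0 without wildtype replicate 2 to 4 without mutant replicate 2, with 3 without mutant replicate 1.

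Leukocyte genes were higher by similar amounts in both pairs. All 20 leukocyte genes were tested, both mutant libraries lay above both wildtype libraries for all 20, against 13.5% of all gene rows, and the median log2 fold change was 0.97 (0.96 in pair 1 and 1.03 in pair 2). By edgeR 4 rose, among them Ptprc, and 8 rose with the block. Leaving out wildtype replicate 1 gave 1 call, wildtype replicate 2 gave 0, mutant replicate 1 gave 7 and mutant replicate 2 gave 9. Their summed level was 209 and 216 CPM in wildtype against 370 and 391 CPM in mutant libraries. Of 18 genes of myeloid progenitors and granulocytes 6 were tested, and with the block 2 rose, Mpo, myeloperoxidase, from 2 and 0 reads to 21 and 10 (edgeR adjusted p = 0.224, or 0.0294 with the block), and Sfpi1, the factor PU.1, from 0.798 and 0.505 CPM to 2.86 and 2.19 CPM (0.201, or 0.0271). Granule genes Prtn3 and Elane stayed under 10 reads in every library. The part of blood cells in the levels of Alb and Afp was not tested.

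**Figure D4:**
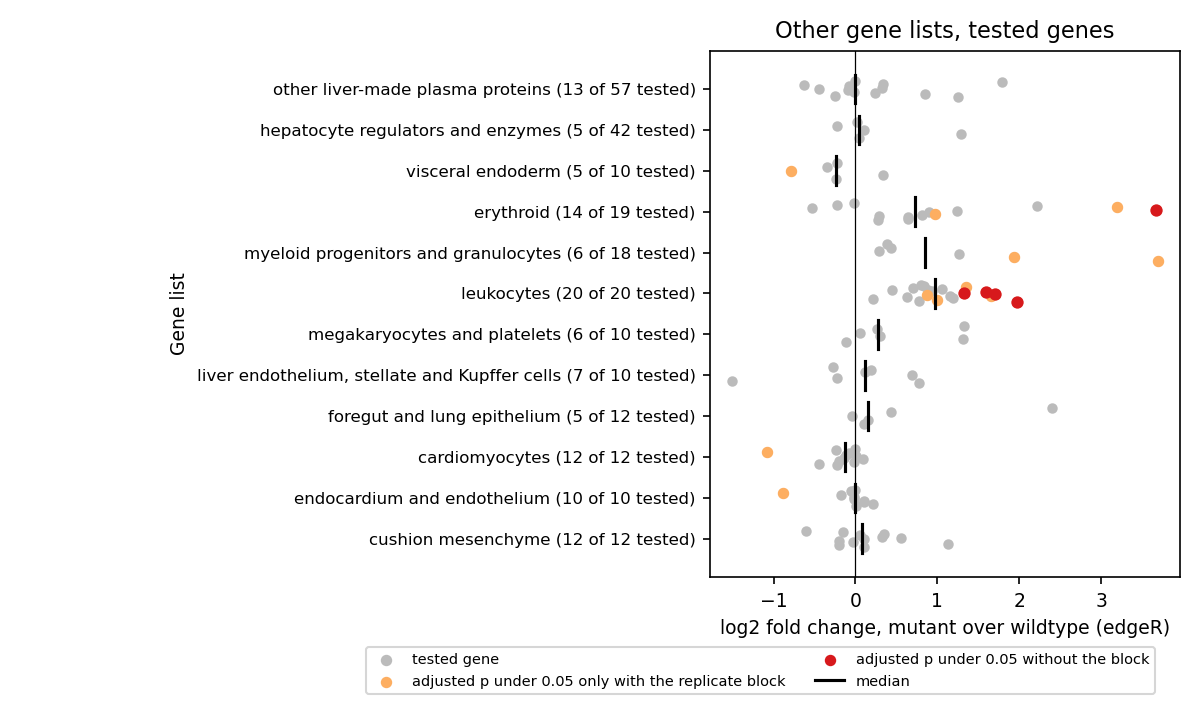
Fitted log2 fold change, mutant over wildtype, of each tested gene in 12 lists other than the 10 genes; grey points are tested genes, orange ones passed only with the replicate block, red ones also without it, and black bars are medians. The leukocyte, myeloid and erythroid lists have medians of 0.97, 0.85 and 0.73. The lists of other plasma proteins and of hepatocyte regulators and enzymes have medians of 0.00 and 0.04. The last 2 medians cover only 13 of 57 and 5 of 42 genes, since the rest had too few reads to be tested.

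The next lists covered cell types of the dissected tissue. Median log2 fold changes were -0.13 over 12 cardiomyocyte genes, -0.01 over 10 endocardial and endothelial genes and 0.08 over 12 genes of cushion mesenchyme, and 0 of the 34 passed by edgeR. With the block 2 fell, and both also passed by DESeq2. The natriuretic peptide gene Nppa, of heart muscle, was at 549 and 419 CPM in the wildtype libraries and at 214 and 243 CPM in the mutant ones (log2 fold change -1.08 ± 0.16, edgeR adjusted p = 0.0683, or 0.00246 with the block, DESeq2 adjusted p = 6.48e-07). Npr3, a natriuretic peptide receptor of endocardium, was at 243 and 228 CPM in the wildtype libraries and at 124 and 132 CPM in the mutant ones (-0.88 ± 0.12, edgeR adjusted p = 0.0654, or 0.00646 with the block, DESeq2 adjusted p = 5.51e-06).

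Genes for receptors of the secreted proteins ranged from near 0 to the level of Lrp1. Asgr1 and Asgr2, the subunits of the hepatocyte asialoglycoprotein receptor, had 0 to 2 reads in each library, and Stra6, the receptor for retinol-binding protein, 1 to 3. The transferrin receptor Tfrc was at 164 to 248 CPM (log2 fold change -0.22 ± 0.18), the VLDL receptor Vldlr at 197 to 214 CPM (-0.01 ± 0.12), the lipoprotein receptor Lrp1 at 238 to 397 CPM (0.43 ± 0.17) and the albumin-recycling receptor Fcgrt at 16.9 to 25.7 CPM (-0.18 ± 0.21). Of 17 such genes 14 were tested and 0 passed by edgeR. With the block 1 rose, the integrin Itgam, which is also on the leukocyte list (edgeR adjusted p = 0.132, or 0.0119 with the block).

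The pattern of Alb and Afp over the 4 libraries was compared with that of 12662 other tested genes outside these lists, by the root mean square difference of centred log2 CPM. The 10 nearest were Clec4n (0.203), Naip2 (0.216), Cytip (0.218), Rab39 (0.231), Ifi204 (0.232), Klf14 (0.238), Apol9a (0.240), Olr1 (0.242), Ccl6 (0.243) and Nlrc5 (0.246). Clec4n, for example, measured 0.692 and 0.568 CPM in wildtype against 1.72 and 2.33 CPM in mutant libraries. The other 4 of the 10 genes that were tested were farther from the pattern, from 0.644 for Trf and 0.767 for Apob to 0.904 for Ttr and 1.352 for Ahsg. Alb and Afp each stood 0.412 from their own mean. With 4 libraries many genes share any pattern, so the list is a description.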

How the data were processed

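The authors deposited raw counts of reads per gene symbol for 4 libraries. The submitters' processing notes name Bowtie2, TopHat2, SAMtools, HTSeq, edgeR and the mm10 build. Tool versions, annotation and strand setting were not given in the sources used here. A second table that the authors deposited holds their edgeR comparison, with p-values, a score (the likelihood ratio), log2 CPM, log2 fold changes and, for some rows, the fold change as a ratio. By their signs against the counts, those log2 values are wildtype over mutant, and they are printed here with the sign turned. Rows that name no gene were left out, which were reads outside features (51.8% to 54.4%), reads not uniquely aligned (16.1% to 17.0%) and ambiguous reads (0.187% to 0.210%).

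Counts were fitted with edgeR 4.0.16 in R 4.3.3 with TMM scaling, the filterByExpr filter, a quasi-likelihood F test for genotype and Benjamini-Hochberg adjustment over 14316 genes. Standard errors were derived from the F statistics. Log2 CPM used a prior count of 2. Exon lengths and positions are from GENCODE M21 and promoter sequences from RefSeq, both on GRCm38. None of the 10 genes overlapped another row of the table. The fits were tested on simulated counts. Alternatives were the replicate block, RLE scaling, library totals, no filter, a stricter filter, DESeq2 1.42.0 and each library left out.

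The series describes 2 pairs of mutants and wildtype littermates, and replicate numbers recur in both genotypes, so the numbers were read as pairs. As a check, the deviation from the group mean was correlated between libraries of the same number, over genes (not replicates), at 0.144. With 2 libraries per group, the opposite pairing gives the same value with its sign turned. The check is therefore weak, and the pairing by number remains an assumption.

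The 10 genes, the other lists and the motifs were chosen with earlier results of these data known. Named were all 10 genes. From the 2 other liver lists came genes past the threshold and the 6 of highest mean CPM. Further genes of these 2 lists, most of them with few reads, were named outside that rule as examples. From each other list came genes past the threshold and the 2 of highest mean CPM, or counts and defining markers only. Some genes that the rule names are not reported here. The nearest genes in pattern exclude listed, predicted, clone-named and sex-linked genes.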

Additional observations from a re-analysis of the deposited data

How the results depend on the processing

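The count of 9 genes called between mutant and wildtype became 127 with the replicate block (99 higher and 28 lower), 236 without a low count filter and 62 with DESeq2, and ranged from 3 to 443 when each library was left out in turn (3 without wildtype replicate 2, 180 without mutant replicate 1 and 443 without mutant replicate 2). RLE scaling, library totals and the stricter filter left it at 9. The cause was not tested. Of the other plasma protein genes, 2 passed without a filter, 1 higher (Cfb) and 1 lower, and 0 to 1 passed with a library left out (1 lower, without mutant replicate 2). In the hepatocyte regulator and enzyme list 0 passed under every alternative run. The summed level of the 10 genes, mutant over wildtype, was 1.60 with all of them, 1.32 without Alb and Afp, 1.94 without Trf and Apob, and 1.33 to 1.87 with a library left out.

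The log2 fold change of Alb lay between 1.46 (without mutant replicate 2) and 3.05 (without wildtype replicate 1), and that of Afp between 1.06 (without mutant replicate 2) and 1.79 (without wildtype replicate 2). Trf lay between 0.39 and 0.68 and Ahsg between -1.14 and -0.11. Ttr changed sign, from -0.60 without mutant replicate 2 to 0.39 without mutant replicate 1, as did Apob, from -0.15 to 0.80. The stricter filter kept only Trf of the 10 genes. With 1 library left out, a lone library is assumed to vary like the other group. The fit had 2 residual degrees of freedom, and 1 with the block.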

Other observations

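Non-hepatocyte cells of liver gave a mixed picture. Of 10 genes of liver endothelium, stellate and Kupffer cells, 7 were tested, the median log2 fold change was 0.12, and 0 passed by edgeR with or without the block or by DESeq2. Clec4f, the Kupffer cell lectin, had 2 and 0 reads in wildtype and 7 and 13 reads in mutant replicates 1 and 2. The other Kupffer cell genes listed had the same direction. Cd5l had 1 and 2 reads in wildtype and 10 and 2 in mutant replicates, and Vsig4 had 1 and 0 against 10 and 3. These Kupffer cell genes were too low to be tested. Clec4g, a lectin of liver and lymph node sinus endothelium, was lower in both mutant libraries, at 1.19 and 0.706 CPM against 3.35 and 2.21 CPM in wildtype (log2 fold change -1.51 ± 0.41, edgeR adjusted p = 0.379). Stab2, of the same list, went the other way, at 2.07 and 2.75 CPM in mutant libraries against 1.44 and 1.32 CPM in wildtype (0.78 ± 0.36). Clec1b and Oit3 overlapped between the groups. Lrat, the retinol-storing enzyme of stellate cells, had 27 reads in wildtype replicate 1 and 174 to 240 in the other libraries. The genes named in this paragraph were picked after their values were seen.

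Epithelial genes of foregut and lung differed in level. The keratin genes Krt19 and Krt18 were the highest, at 11.9 to 16.4 CPM (log2 fold change 0.43 ± 0.17) and 11.4 to 14.7 CPM (-0.04 ± 0.20). Of the 12 genes 7 stayed under 10 reads in every library, and Epcam had 7 to 9 reads. By edgeR 0 of the 5 tested passed, and 2 were higher at an unadjusted p below 0.05, Krt19 and Esrp1. Esrp1 was at 0.160 and 0.189 CPM in wildtype against 0.572 and 1.41 CPM in mutant libraries (2.40 ± 0.71, edgeR adjusted p = 0.462). Of 10 megakaryocyte and platelet genes 6 were tested and 0 passed by edgeR, with a median log2 fold change of 0.28. Pf4, platelet factor 4, was at 2.55 to 3.09 CPM (-0.12 ± 0.30), the only negative log2 fold change among the tested genes of this list. Treml1 and Ppbp had 1.32 ± 0.59 and 1.31 ± 0.35. Itga2b had 0.30 ± 0.25, Thbs1 0.26 ± 0.19 and Gp1ba 0.05 ± 0.43.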
